A study of Mus musculus with 2 samples.

Results

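Contactins and contactin-associated proteins are 2 families of neuronal cell-surface adhesion proteins, and their expression was followed here through the cell classes of the embryonic mouse cortex. The genes were the 10 rows of the count tables with the symbols Cntn1, Cntn2, Cntn3, Cntn4, Cntn5, Cntn6, Cntnap2, Cntnap4, Cntnap5b and Cntnap5c, out of 32285 genes, and all 10 were found in both libraries. Single cells were sequenced from the dissociated dorsal telencephalon, the part of the forebrain that forms the cerebral cortex, of mouse embryos of the wild-type (WT) genotype at embryonic day 16.5 (E16.5). The series concerns the loss of the histone methyltransferase gene Dot1l with the Emx1-Cre mouse line. The conditional knockout was not analysed here and no comparison between genotypes was made. For the 2 libraries, WT replicate 1 and WT replicate 6, the labels give no treatment and do not say whether the embryos carried Cre or whether a library pooled embryos. Cell classes were compared with each other within this group.

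Contactins (Cntn) are members of the immunoglobulin superfamily that are held in the outer leaflet of the membrane by a lipid anchor, so they depend on partners in the same or the opposite membrane to signal. Contactin-associated proteins (Cntnap, also called Caspr) span the membrane and belong to the neurexin superfamily. In mature myelinated axons, contactin and Caspr proteins pair on the axon beside the node of Ranvier, and in the developing brain several of them act in axon growth, fasciculation and synapse formation. Cntn1 is found on axons and on cells of the oligodendrocyte lineage and binds the receptor phosphatase Ptprz1. Cntn2, also known as TAG-1, marks growing axons and partners Cntnap2. Cntn3, Cntn4, Cntn5 and Cntn6 bind the receptor phosphatase Ptprg, and Cntn4 also binds the amyloid precursor protein App. Cntnap2 gathers Kv1 potassium channels and has been linked to autism and epilepsy, while Cntnap4 has been studied in synaptic transmission by interneurons.

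Most of these genes are long. In GRCm38.p6, the assembly of the mm10 build named in the submitters' notes, the listed spans ran from 33.8 kb for Cntn2 on chromosome 1 (chr1:132509425-132543251) to 2241 kb for Cntnap2 on chromosome 6 (chr6:45060061-47301393). Cntn3 (chr6:102163304-102564614), Cntn6 (chr6:104492662-104863406) and Cntn4 (chr6:105677632-106700141) follow each other on chromosome 6. Cntn1 lies on chromosome 15 (chr15:92051152-92341967), Cntn5 on chromosome 9 (chr9:9634223-10904775), Cntnap4 on chromosome 8 (chr8:112569798-112882707), Cntnap5b on chromosome 1 (chr1:99772246-100490599) and Cntnap5c on chromosome 17 (chr17:57769074-58417953). Whether intronic reads were counted is not given in the sources used here, and such reads would add most to the longest genes. Levels are therefore compared only within a gene.

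The RefSeq promoter table of GRCm38.p6 held 8 of the 10 genes, all but Cntnap4 and Cntnap5c. The 250 bases upstream of the listed start are shown for Cntn5 and Cntnap2, whose own levels peaked in striatal neurons and in Cajal-Retzius cells, with every CG dinucleotide in capitals.
Cntn5, window 1, chr9:10904776-10905025, minus strand: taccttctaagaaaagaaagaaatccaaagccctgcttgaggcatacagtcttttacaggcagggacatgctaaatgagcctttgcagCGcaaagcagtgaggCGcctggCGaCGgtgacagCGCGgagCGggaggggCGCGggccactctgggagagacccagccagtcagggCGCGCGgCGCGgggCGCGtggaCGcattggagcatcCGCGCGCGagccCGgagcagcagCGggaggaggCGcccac
Cntnap2, window 1, chr6:45059811-45060060, plus strand: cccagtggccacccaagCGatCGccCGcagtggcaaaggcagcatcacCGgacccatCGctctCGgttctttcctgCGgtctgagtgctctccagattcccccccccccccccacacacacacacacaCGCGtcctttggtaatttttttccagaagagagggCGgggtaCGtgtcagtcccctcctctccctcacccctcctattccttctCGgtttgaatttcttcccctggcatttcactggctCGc
The Cntn5 window held 24 CG dinucleotides, a number reached by 11.98% of the 32817 promoter windows of the same length, and 64.8% of its bases were G or C. The Cntnap2 window held 13, reached by 31.5% of windows, at 59.6% G or C. The median window held 6. The E-box letters CANNTG, the same on both strands, had 0 matches in either window shown, against at least 1 match in 66.2% of all windows. Other listed starts differed. Window 2 of Cntn5, which overlaps window 1, held 3 matches, and window 2 of Cntnap2 held 1. These are descriptions of the letters in a window and not of any factor's binding.

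WT replicate 1 held 14136 cell barcodes and 74930397 unique molecular identifiers (UMIs, 1 per captured mRNA molecule), and WT replicate 6 held 13046 and 68964234. A depth of 1500 to 60000 UMIs with less than 10% of them mitochondrial was met by 8139 and 8209 cells, of which 7219 and 7352 were kept after likely doublets were left out. The 10 genes gave 66171 and 59255 UMIs over all barcodes, or 0.0883% and 0.0859% of each library. The libraries shared 59 barcodes, and their sums of Xist, from the inactive X chromosome, were 76258 and 10 UMIs, so they came from different embryos, whose deposited sums were compared as 2 replicates. Marker genes placed 6369 of the 14571 kept cells (43.7%) in 20 classes, none of which was defined by a contactin or Caspr gene. The classes had 27 to 828 cells per library and median depths of 2360.5 to 13544.5 UMIs per cell. Of 16 checks with markers that no gate reads, 14 were higher in the class they mark than in its nearest comparator in both libraries. The exceptions were Ldb2 and Crim1, checked in the cells gated as layer 5 against those gated as layer 6. Ldb2 was lower in both libraries, at 330 and 343 CPM (defined below) against 671 and 705 CPM. Crim1 was mixed, at 97.2 and 89.5 CPM against 91.7 and 117 CPM. Layer 5 here therefore means neurons with Fezf2 and Bcl11b UMIs and nothing more. Striatal markers (Ebf1, Isl1, Drd2, Six3) gated 571 cells, although the labels name the dorsal telencephalon as the tissue taken.

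Levels are given as CPM, the UMIs of a gene in a class and library scaled to the same total of UMIs throughout, always as WT replicate 1 followed by WT replicate 6. The genes led in different classes. Cntn1 was highest in oligodendrocyte precursors at 352 and 331 CPM (mean 341 ± 14.9, SD, n = 2), and Cntn2 in upper layer neurons at 349 and 348 CPM. Cntn3 led in Cajal-Retzius cells (132 and 132 CPM) and Cntn6 in layer 6 neurons at 68.1 and 56.4 CPM. Cntn5 was highest in Ebf1/Isl1 striatal neurons (2179 and 2128 CPM), as was Cntnap5b (448 and 599 CPM). Cntnap2 reached 3713 and 3390 CPM in Cajal-Retzius cells, and Cntnap4 and Cntnap5c peaked in interneurons of the medial ganglionic eminence (MGE) without Sst, at 387 and 479.6 CPM and at 896 and 930.5 CPM. Cntn4 had its highest mean in Sst+ MGE interneurons, at 63.4 and 88.4 CPM, where 1 cell held 47.1% and 45% of the UMIs and the levels without it were 33.5 and 48.6 CPM. This class overlapped with the next in the Cntn4 order. Neighbours in the order were not always separated. For Cntn1 the next class, layer 6 neurons at 281 and 292 CPM, did not overlap with oligodendrocyte precursors, whereas the striatal Ebf1/Isl1 class (151 and 280.5 CPM) overlapped with the Sst+ interneurons that followed it (175 and 137 CPM).

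**Figure D1:**
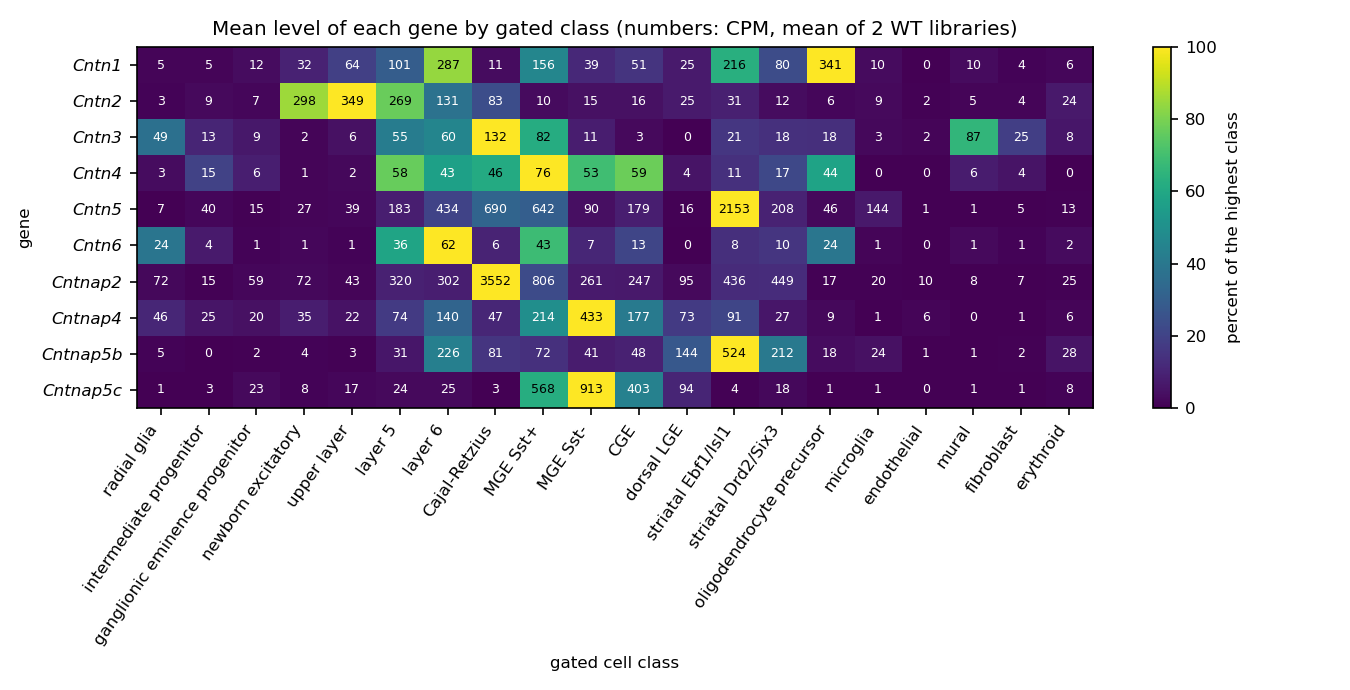
Mean level of each of the 10 genes (rows) in each of 20 marker-gated cell classes (columns) over the 2 WT libraries. Numbers are mean CPM and the colour is the percent of that gene's highest class, so colours are comparable only within a row. Cntn2 is brightest in the newborn, upper layer and layer 5 neurons, Cntnap5c in the MGE and CGE interneurons and Cntn5 in Ebf1/Isl1 striatal neurons.

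The share of cells with a UMI of a gene was compared after each cell had been thinned to 2000 UMIs, since the classes differed in depth. Microglia and erythroid cells, taken as types that should lack these genes, gave the level that free RNA can produce. Their median depths were 7919.5 and 6020.5 UMIs for microglia and 4234.5 and 4560 for erythroid cells. A class was called above that level when the lower bound of its 95% Wilson interval lay above the upper bounds of both, and intervals cover counting error only. This held for 48 of 180 combinations of gene and class, with 11 of 18 classes for Cntnap4, 9 for Cntnap2 and 5 each for Cntn1, Cntn4 and Cntn5. Cntn2 UMIs were found in 48.0% of upper layer neurons (698 of 1454 cells, 45.4 to 50.6%), or 82.1% before thinning, against 4.11% of erythroid cells (2.42 to 6.91%), or 6.44% before thinning. Cntnap2 was found in 92.9% of Cajal-Retzius cells (78 of 84, 85.3 to 96.7%) and in 5.0% of microglia. Cntn6 passed in 0 of 18 classes. Its highest shares were 7.45% of oligodendrocyte precursors (3.65 to 14.6%), 7.41% of Sst+ interneurons (3.44 to 15.2%) and 6.25% of layer 6 neurons (3.94 to 9.78%), against 0.833% of microglia with an upper bound of 4.57%. By this rule no class had a share of cells with Cntn6 above free RNA, but the rule rests here on the wide interval of microglia. Newborn neurons had Cntn6 in 0.157% of cells (0.0278 to 0.885%). That interval lay below those of oligodendrocyte precursors, Sst+ interneurons and layer 6 neurons. Endothelial cells had a share of 0%, but their upper bound of 3.497% lay above the lower bound of Sst+ interneurons.

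**Figure D2:**
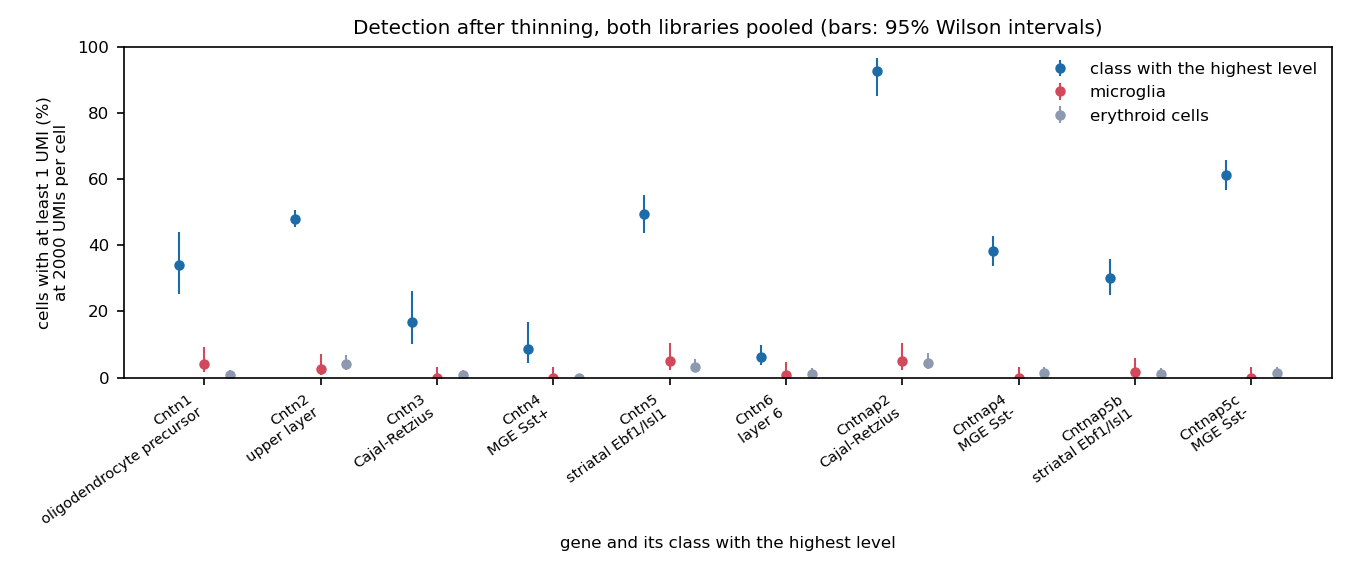
Percent of cells (vertical axis) with at least 1 UMI after thinning to 2000 UMIs, for each gene in the class where its level was highest, in microglia and in erythroid cells, both libraries pooled, with 95% Wilson intervals. Cntnap2 in Cajal-Retzius cells (92.9%) and Cntnap5c in Sst- MGE interneurons (61.4%) stand far above erythroid cells (4.43% and 1.27%), while the interval of Cntn6 in layer 6 neurons reaches down to that of microglia.

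The first set of comparisons followed the excitatory lineage from radial glia, the stem cells of the cortex, through intermediate progenitors to newborn and layer neurons. In all comparisons UMIs were summed per class and library, so that a class gave 2 values, and sums were tested with edgeR's quasi-likelihood test with Benjamini-Hochberg adjustment over all genes tested. The p-values rest only on the spread between these 2 libraries, which edgeR moderates for each gene with that of the other genes. Several comparisons share a class and are not independent. From radial glia to intermediate progenitors, 4 of the 10 genes fell and 2 rose. Cntn3 was at 42.5 and 55.3 CPM in radial glia and at 11.1 and 15.7 CPM in intermediate progenitors. Cntnap2 was at 67.4 and 77.5 CPM against 17.5 and 12.9 CPM. Cntn5 went the other way, from 6.90 and 7.41 CPM to 30.2 and 49.0 CPM. For these genes the lowest value of one class exceeded the highest of the other. Such separation is given here and below for named genes only, and its share over all genes was not computed. The log2 differences were -1.86 ± 0.27 (SE, adjusted p = 0.000231) for Cntn3, -2.22 ± 0.23 (adjusted p = 1.32e-05) for Cntnap2 and 2.46 ± 0.32 (adjusted p = 0.0001) for Cntn5. Detection of Cntn5 in intermediate progenitors did not pass the bound set by microglia and erythroid cells. After thinning, Cntn5 was found in 4.67% of intermediate progenitors (2.69 to 7.98%), against an upper bound of 10.5% over those 2 types. In radial glia the share was 1.46% (0.672 to 3.16%). Cntn6 fell by 2.34 on the log2 scale (adjusted p = 0.00776) from 14.3 and 34.1 CPM to 7.15 and 1.85 CPM, with differences of -0.97 in WT replicate 1 and -3.96 in WT replicate 6. Cntnap4 fell by 0.90 (adjusted p = 0.0146, with -0.55 in WT replicate 6 alone), and Cntn4 rose by 2.50 ± 0.57 (adjusted p = 0.0064) although 1 cell held 73.9% of its intermediate progenitor UMIs in WT replicate 6. Among these calls, only those of Cntn6 and Cntnap2 were kept under each alternative in which the gene was tested. Of all 10904 genes tested, 8.72% were higher and 13.3% lower in intermediate progenitors. The median log2 difference of the 6 tested family genes was -1.38, against 0.00 over all genes. Cntnap5b had 0 UMIs in intermediate progenitors of both libraries, which allows up to 1.28 CPM, and was not tested, like Cntn1, Cntn2 and Cntnap5c.

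Splitting the progenitors by cycling genes (Mki67, Top2a, Cdk1, Ccnb1, Cenpf, Ube2c) showed, as a description, where Cntn5 UMIs lay. Intermediate progenitors with 0 or 1 cycling UMIs had Cntn5 levels of 53.2 and 73.1 CPM. Those with 3 or more had 0 and 13.5 CPM, on 0 and 5 UMIs, which did not overlap. The Cntn5 levels of both subsets lay below the mean of 144 CPM in microglia. That mean is uncertain, since a single cell per library held a large part of the microglial Cntn5 UMIs, as given below with the striatal cells. In radial glia the same split left Cntn3 at 48.7 and 84.4 CPM in cells with 0 or 1 cycling UMIs and at 38.9 and 38.2 CPM in those with 3 or more.

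Newborn neurons, gated on Neurod1 and Unc5d and without Fezf2 or Hs3st4 UMIs, had far more Cntn2 than intermediate progenitors. Its values were 3.18 and 13.9 CPM in intermediate progenitors and 302 and 293 CPM in newborn neurons, and the classes were far apart. The log2 difference of 5.32 ± 0.26 (adjusted p = 1.66e-09) was the largest rise of the family in this comparison. Cntn1 rose by 3.04 ± 0.50 (adjusted p = 0.000192), from 0.794 and 8.32 CPM to 39.4 and 25.1 CPM, with 5.36 in WT replicate 1 alone and 1.68 in WT replicate 6. Cntnap2, the partner of Cntn2, rose by 2.35 ± 0.23 (adjusted p = 1.34e-06) and reached 64.1 and 79.2 CPM, which overlapped with the levels in radial glia. Cntnap4 rose by 0.63 ± 0.23 (adjusted p = 0.0353), a call lost without TMM scaling (0.50), where the median of all genes moved from 0.00 to -0.13, and a difference of 0.39 in WT replicate 6 alone. Cntn3 fell by 2.66 (adjusted p = 0.00669) to 0 and 3.98 CPM, with -5.37 in WT replicate 1 alone, where newborn neurons had 0 UMIs, and Cntn4 fell by 3.75 (adjusted p = 0.000199) to 1.05 and 0.796 CPM. Cntn5 differed by -0.43 ± 0.39 (adjusted p = 0.395) and Cntnap5c by 1.50 ± 0.61 (adjusted p = 0.0581, or 0.0259 with the library as a block). Cntn6 and Cntnap5b were not tested. In all, 4 of 8 tested genes rose and 2 fell, where 24.2% of all genes rose and 24% fell, and the family median was 1.07.

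Between newborn neurons and the neurons gated to a layer (upper layer, layer 5 and layer 6 together), 8 of 10 genes rose and 0 fell, since the other two also lay above 0, against 5.21% and 3.49% of all genes. The median of the family was 1.89 and that of all genes 0.01. Cells with Fezf2 or Hs3st4 UMIs were kept out of the newborn gate, while layer 5 cells needed Fezf2 and layer 6 cells Hs3st4. Stage and layer type therefore cannot be told apart for layer 5 and layer 6 neurons in this comparison. Cntn1 was at 39.4 and 25.1 CPM in newborn and at 99.7 and 102 CPM in layer-gated neurons (1.66 ± 0.16, adjusted p = 9.77e-05). Cntnap5b was at 4.18 and 4.38 CPM against 38.6 and 39.4 CPM (3.21 ± 0.19, adjusted p = 4.33e-06), and Cntn6 rose by 3.61 ± 0.40 (adjusted p = 0.00031). Neither gene overlapped between the classes. Cntn2 differed little, with 302 and 293 CPM in newborn and 308 and 308 CPM in layer-gated neurons (0.08 ± 0.08, adjusted p = 0.687). The other rises were 3.40 for Cntn3 (8.01 in WT replicate 1 and 2.02 in WT replicate 6), 3.89 for Cntn4, 2.12 for Cntn5, 0.67 for Cntnap2 and 1.34 for Cntnap5c, with adjusted p from 0.00187 to 0.00394. Cntnap4 gave 0.41 ± 0.13 (adjusted p = 0.0849, or 0.0176 with the library as a block). The number of genes called was 6 with DESeq2, 4 with each gate raised by 1 UMI and 2 after thinning, and 388 of the 641 newborn neurons lay within 1 UMI of their gate.

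The layers did not share this rise, as a split made after the data had been seen showed. In upper layer neurons alone, 3 genes differed from newborn neurons. Cntn1 rose by 1.01 ± 0.17 (adjusted p = 0.00496), while Cntnap2 fell by 0.71 (adjusted p = 0.0167) and Cntnap4 fell by 0.63 (adjusted p = 0.022). In deep layer neurons alone, layer 5 and layer 6 together, all 10 genes differed. Of these 9 rose, among them Cntn6 by 5.50 ± 0.34 and Cntnap5b by 5.09 ± 0.18, and Cntn2 fell by 0.58 (adjusted p = 0.00236). Cntnap2 and Cntnap4 thus moved in opposite directions in upper and deep layer neurons. For these splits the share of all genes called was not computed, so the counts have no background beside them.

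The same contrast stood out when upper and deep layer neurons were compared directly. In deep layer neurons 8 of 10 genes were higher and 1, Cntn2, was higher in upper layer neurons. Cntnap5b was at 3.17 and 3.04 CPM in upper and at 136 and 148 CPM in deep layer neurons, and Cntn6 at 0.176 and 1.07 CPM against 49.3 and 52.5 CPM. Cntnap2 was at 47.9 and 37.6 CPM against 295 and 325 CPM. Cntn1 was at 60.1 and 68.0 CPM against 208 and 205 CPM. No gene among these overlapped between the classes. The log2 differences, upper minus deep, were -5.51 ± 0.14 for Cntnap5b (adjusted p = 2.34e-07), -6.22 ± 0.33 for Cntn6 (adjusted p = 4.74e-06), -2.86 ± 0.14 for Cntnap2 (adjusted p = 2.91e-06) and -1.69 ± 0.10 for Cntn1 (adjusted p = 7.03e-06). Cntn2 stood at 349 and 348 CPM against 195 and 187 CPM (0.87 ± 0.09, adjusted p = 0.00034). Cntn3 (-3.25), Cntn4 (-4.89), Cntn5 (-3.05) and Cntnap4 (-2.36) were also lower in upper layer neurons, with adjusted p of 0.000239 or less. Cntnap5c gave -0.46 ± 0.44 (adjusted p = 0.568), with opposite directions in the libraries. Over all genes 5.27% were higher and 9.48% lower in upper layer neurons, and the median of the family was -2.96 against 0.01 for all genes. The 9 calls were kept under each alternative in which the gene was tested.

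Within the deep layers, layer 6 neurons exceeded layer 5 neurons in 3 genes and layer 5 in 1. Cntnap5b was at 216 and 236 CPM in layer 6 and at 36.7 and 26.2 CPM in layer 5 (2.90 ± 0.20, adjusted p = 3.91e-05). After thinning, it was found in 26.1% of layer 6 cells (21.2 to 31.6%) and in 5.88% of layer 5 cells (3.32 to 10.2%), against 1.67% of microglia. Cntn1 was at 281 and 292 CPM against 118 and 84.1 CPM (1.56 ± 0.18, adjusted p = 0.000607), and Cntnap4 at 115 and 165 CPM against 70.2 and 77.5 CPM (0.99 ± 0.20, adjusted p = 0.013). Neither gene overlapped between the layers. Cntn2 was at 128 and 135 CPM in layer 6 against 278 and 261 CPM in layer 5 (-0.98 ± 0.14, adjusted p = 0.00248), but the difference was -0.57 (not called) with each gate raised by 1 UMI and 0.10 after thinning. Of the 189 layer 5 cells, 126 lay within 1 UMI of the gate. Cntnap2 did not separate the layers (286 and 319 CPM against 307 and 333 CPM, -0.02 ± 0.15, adjusted p = 0.952). Cntn5 gave 1.31 ± 0.37 (adjusted p = 0.064) and Cntn6 0.83 ± 0.27 (adjusted p = 0.0967), and both were called with the library as a block (adjusted p = 1.15e-14 and 0.00436). The block fit leaves fewer residual degrees of freedom than the main fit, so these p-values were not taken as stronger evidence. Mean Cntn5 levels were 434 ± 75.7 CPM (SD, n = 2) in layer 6 and 183 ± 130 CPM in layer 5. Cntn4 in layer 5 was at 7.56 and 109 CPM, where 1 cell held 72% of the UMIs of WT replicate 6, and at 30.6 CPM without that cell. Cntn4 (-0.37), Cntn3 (0.17) and Cntnap5c (0.042) were not called. The family median was 0.50 and that of all genes 0.01, with 5.42% of all genes higher and 3.43% lower in layer 6.

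**Figure D3:**
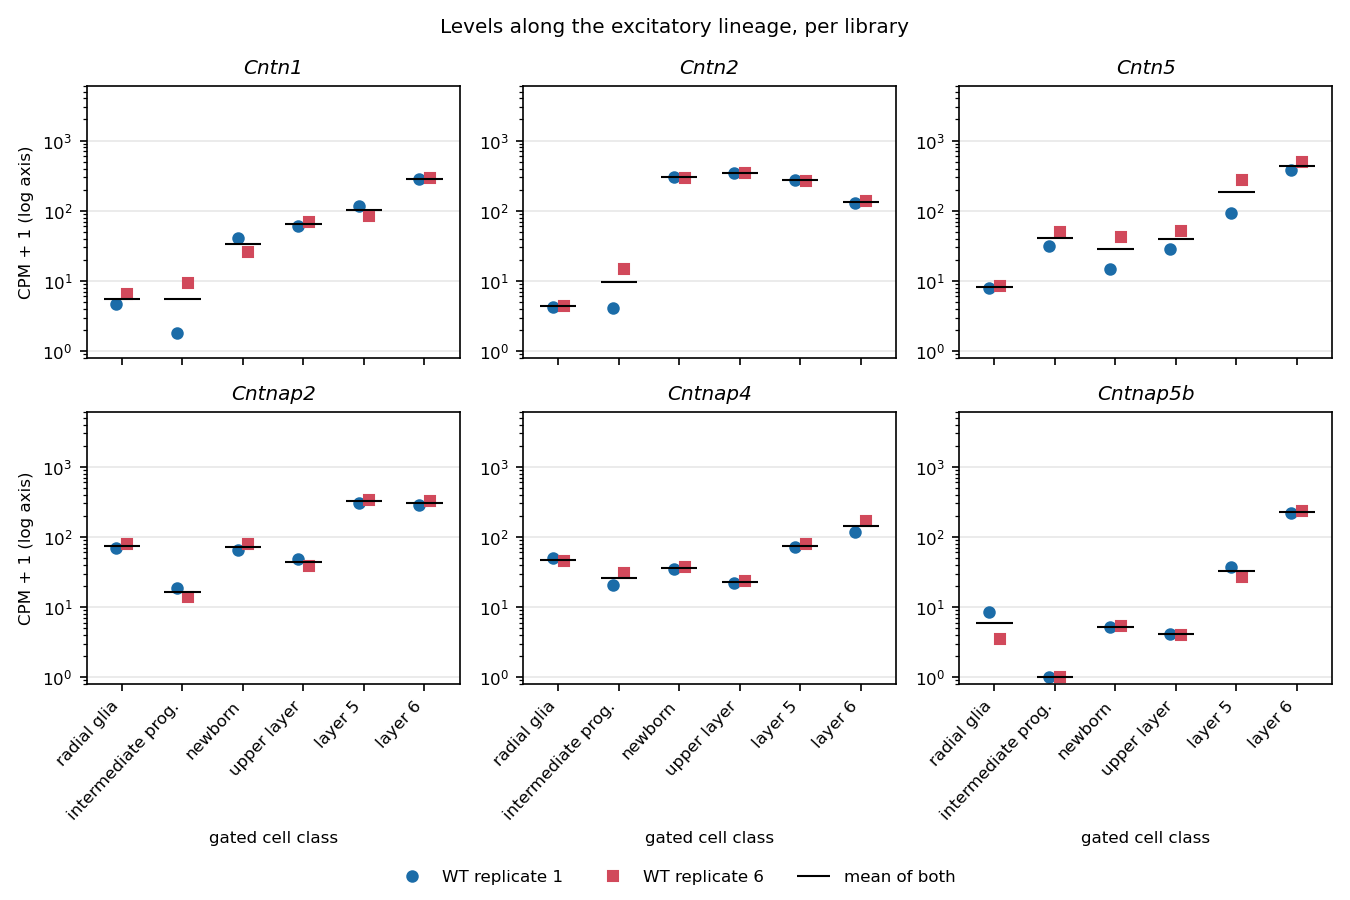
Level of Cntn1, Cntn2, Cntn5, Cntnap2, Cntnap4 and Cntnap5b as CPM + 1 (log axis) in radial glia, intermediate progenitors and the newborn, upper layer, layer 5 and layer 6 neurons, with 1 point per WT library and a line at the mean. Cntn2 climbs at the newborn stage to 302 and 293 CPM and stays high in upper layer neurons, whereas Cntnap5b is at 3.17 and 3.04 CPM in upper layer neurons and at 216 and 236 CPM in layer 6 neurons.

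Inhibitory neurons of the cortex migrate in from the ganglionic eminences of the ventral forebrain. The 1044 interneurons gated as MGE or as caudal ganglionic eminence (CGE) cells were set against the layer-gated excitatory neurons, and 5 of 10 genes were higher and 2 lower in interneurons. Cntnap5c was at 627 and 670.1 CPM in interneurons and at 17.3 and 21.4 CPM in excitatory neurons (5.02 ± 0.13, adjusted p = 2.11e-09). Cntn2 was its mirror image, at 16.6 and 13.0 CPM against 308 and 308 CPM (-4.42 ± 0.13, adjusted p = 6.04e-09), and its interneuron level lay below the 23.8 and 23.2 CPM of erythroid cells. Both genes separated the classes without overlap. Cntnap4 (2.67 ± 0.15), Cntn4 (2.01 ± 0.33) and Cntnap2 (1.45 ± 0.09) were higher in interneurons and Cntn1 was lower (-0.86 ± 0.10), with adjusted p from 5.47e-07 to 0.00109. Cntn5 was called higher by 0.71 ± 0.17 (adjusted p = 0.00945), with 1.09 in WT replicate 1 and 0.39 in WT replicate 6, but without the cell holding the most of its UMIs in each class and library the difference was 0.27 (adjusted p = 0.277). Cntn3 (-0.44), Cntn6 (-0.07) and Cntnap5b (0.24) were not called. Here 19.3% of all genes were higher and 18.6% lower in interneurons, and the family median was 0.47 against -0.01.

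Among interneurons, MGE cells had more Cntnap5c and Cntnap4 than CGE cells. Cntnap5c was at 807 and 884 CPM in MGE and 417 and 388 CPM in CGE interneurons (1.07 ± 0.13, adjusted p = 0.000215). Cntnap4 was at 335 and 446 CPM against 148 and 206.5 CPM (1.14 ± 0.18, adjusted p = 0.00137). The classes did not overlap for either gene. Cntn3 was at 24.5 and 23.7 CPM against 4.62 and 2.02 CPM (2.79 ± 0.45, adjusted p = 0.00154), and Cntnap2 at 392 and 346 CPM against 215 and 279 CPM (0.58 ± 0.15, adjusted p = 0.0355), a call lost with DESeq2 (0.57), with 0.31 in WT replicate 6 alone. In total 4 of 10 genes were higher and 0 lower, where 3.83% and 3.77% of all genes were. By edgeR at an unadjusted p under 0.05, and by DESeq2, the number lower was 0 as well. The family median was 0.21 against 0.00. Cntn5 was at 203 and 192 CPM against 181 and 177 CPM (0.13, adjusted p = 0.729). Cntn1 (0.28), Cntn2 (-0.19), Cntn4 (-0.024), Cntn6 (0.056) and Cntnap5b (-0.022) were not called either.

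MGE interneurons were then divided by somatostatin (Sst), the neuropeptide of a major interneuron type, into 81 Sst+ cells with 2 or more Sst UMIs and 482 Sst- cells with 0. Sst+ cells were deeper, with median depths of 5929 and 5486.5 UMIs against 4073 and 3670. Cntn5 was at 675 and 610 CPM in Sst+ and at 76.1 and 104 CPM in Sst- cells (2.78 ± 0.20, adjusted p = 1.97e-06). A single cell held 56.4% and 36.2% of the Sst+ UMIs, and without these cells the levels were 294 and 389 CPM, still above Sst- cells in both libraries. Cntnap2 was at 962 and 650 CPM against 239 and 283 CPM (1.58 ± 0.21, adjusted p = 0.000391), and Cntn1 at 175 and 137 CPM against 33.1 and 45.3 CPM (1.95 ± 0.26, adjusted p = 0.000389). Cntn3 (2.87 ± 0.38, adjusted p = 0.000389) and Cntn6 (2.58 ± 0.47, adjusted p = 0.00486) were higher on 19 and 21 UMIs and on 11 and 10 UMIs of the Sst+ cells. For Cntn3, 1 cell held 31.6% and 71.4% of these UMIs, and the levels without it were 48.5 and 26.5 CPM. Cntnap4 was lower, at 142 and 287 CPM in Sst+ against 387 and 479.6 CPM in Sst- cells (-1.08 ± 0.25, adjusted p = 0.0226), and so was Cntnap5c, at 473 and 663 CPM against 896 and 930.5 CPM (-0.74 ± 0.19, adjusted p = 0.0401). All 7 of these genes kept the classes apart in both libraries. Cntn4 (0.45, adjusted p = 0.594) and Cntnap5b (0.83, adjusted p = 0.266) were not called, and Cntn2 was not tested. So 5 of 9 tested genes were higher and 2 lower, against 2.64% and 1.42% of all genes, with a family median of 1.58 and -0.01 for all genes. The calls depended on the gates. With each gate raised by 1 UMI, which left 21 and 14 Sst+ cells, edgeR made 1 call (7 genes at an unadjusted p under 0.05), and after thinning, which left 14 and 20, it made 0 (3 genes at an unadjusted p under 0.05).

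The 21 and 17 MGE cells with exactly 1 Sst UMI, which neither class held, lay between the classes only in part. Cntn5 was at 266 CPM in WT replicate 1, between the Sst- and Sst+ levels, but at 61.2 CPM in WT replicate 6, below both. Cntnap4 was at 546 and 441 CPM and so on the side of Sst- cells or above it. Cntnap5c was at 692 and 649 CPM.

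A further inhibitory class, 55 cells with Tshz1, Pbx3 and Meis2 and without MGE or CGE markers, was gated as neurons of the dorsal lateral ganglionic eminence (LGE), the source of olfactory bulb interneurons. It held few UMIs and its values are correspondingly uncertain. Cntnap5c had 16 and 5 UMIs, or 131 and 56.5 CPM, against 627 and 670.1 CPM in cortical interneurons (-2.80 ± 0.30, adjusted p = 1.99e-06). Cntn5 (4 and 0 UMIs, -3.40 ± 0.48), Cntnap4 (11 and 5 UMIs, -2.05 ± 0.33) and Cntnap2 (15 and 6 UMIs, -1.75 ± 0.29) were also lower, with adjusted p of 0.000365 or less. Cntnap5b, with 13 and 16 UMIs, or 107 and 181 CPM against 54.9 and 39.6 CPM, was higher by 1.46 ± 0.35 (adjusted p = 0.0178), a call lost without the top cell (0.85, adjusted p = 0.467), with 0.87 in WT replicate 1 alone. For Cntn5 the difference was -8.81 in WT replicate 6, where the class had 0 UMIs. Cntn3 and Cntn6 had 0 of 210548 UMIs, which allows up to 14.2 CPM, close to their levels in cortical interneurons, so no fold is given. Cntn1 (2 and 3 UMIs, -1.35, adjusted p = 0.265) and Cntn2 (2 and 3 UMIs, 0.59, adjusted p = 0.85) were not called. Cntn4, with 1 and 0 UMIs, gave an adjusted p of 0.0806, or 0.00593 with the library as a block. In this comparison 1 of 10 genes was higher and 4 lower, where 1.09% and 2.1% of all genes were, and the family median was -2.43, or -1.55 with the genes at 0 UMIs set to their bound, against -0.08 for all genes. Without the filter on low counts edgeR called 0 of the 10 genes, and 8 had an unadjusted p under 0.05.

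**Figure D4:**
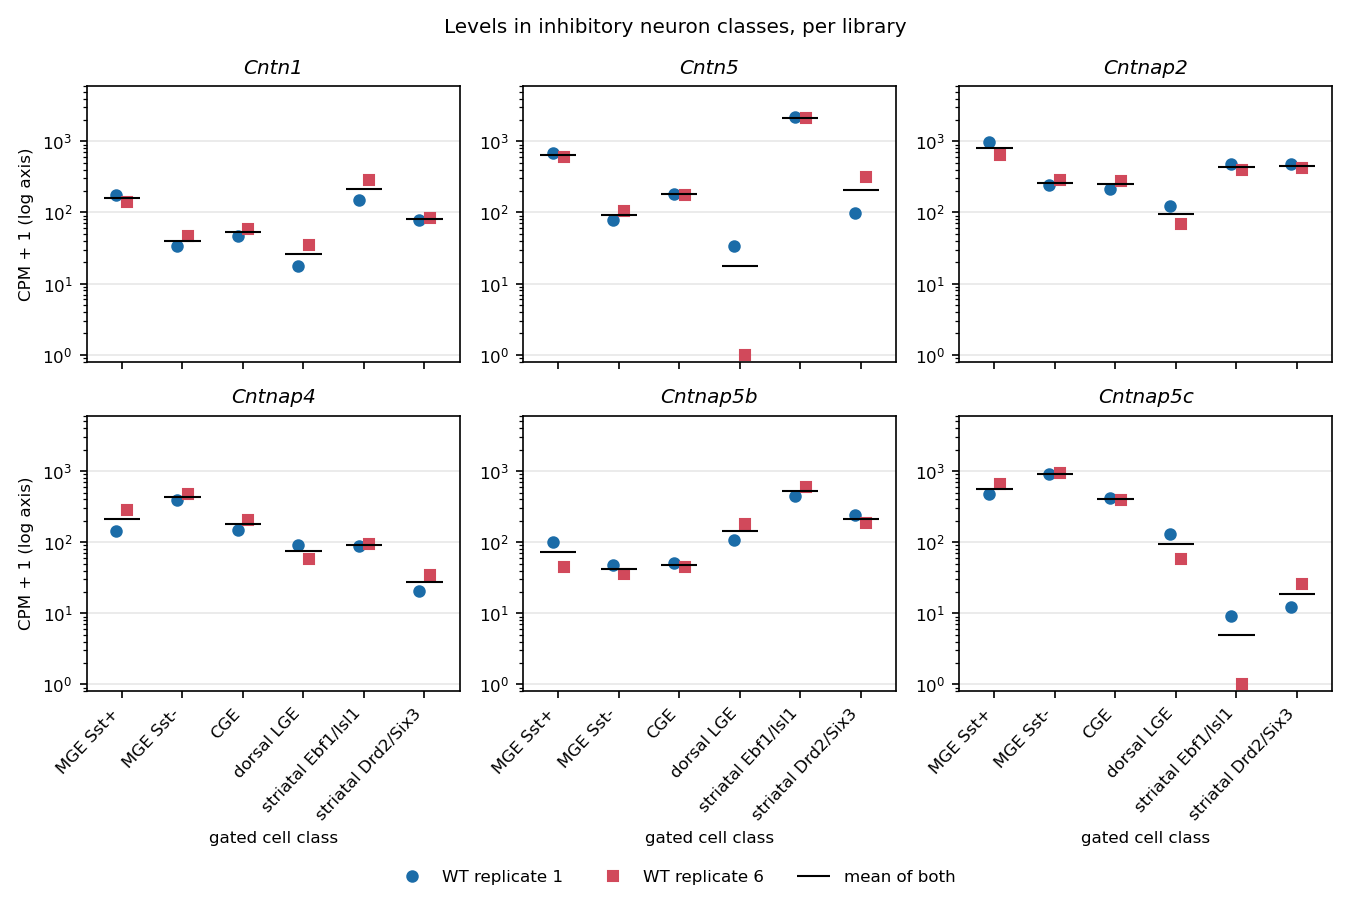
Level of Cntn1, Cntn5, Cntnap2, Cntnap4, Cntnap5b and Cntnap5c as CPM + 1 (log axis) in Sst+ and Sst- MGE interneurons, CGE interneurons, dorsal LGE neurons and both striatal classes, with 1 point per WT library and a line at the mean. Cntnap5c lies at 388 CPM or more in the MGE and CGE classes and at 24.6 CPM or less in the striatal classes, and Cntn5 stands at 2179 and 2128 CPM in Ebf1/Isl1 striatal neurons.

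The striatal cells fell into 286 with Ebf1 or Isl1, factors of the direct-pathway projection neurons that carry Drd1, and 285 with Drd2, Six3 or Adora2a, genes of the indirect pathway. Cntn5 was at 2179 and 2128 CPM in the Ebf1/Isl1 class and at 98.6 and 317 CPM in the Drd2/Six3 class (3.41 ± 0.36, adjusted p = 5.66e-05). In the latter, 1 cell held 46.6% of the UMIs of WT replicate 6, and the level was 169 CPM without it. After thinning, Cntn5 was found in 49.5% of Ebf1/Isl1 cells (43.6 to 55.3%) and in 16.5% of Drd2/Six3 cells (12.6 to 21.4%), against 5.0% of microglia. Microglia had Cntn5 levels of 126 and 161 CPM, of which 1 cell per library held 75% and 45.9%. Cntnap5b was at 448 and 599 CPM against 239.8 and 184 CPM (1.30 ± 0.18, adjusted p = 0.000545), Cntn1 at 151 and 280.5 CPM against 77.2 and 81.9 CPM (1.43 ± 0.25, adjusted p = 0.00331) and Cntnap4 at 86.4 and 94.8 CPM against 19.3 and 34.1 CPM (1.81 ± 0.25, adjusted p = 0.000677). None of these 4 genes overlapped between the classes. Cntn2 was higher by 1.39 ± 0.35 (adjusted p = 0.0348), at 30.0 and 31.6 CPM, within reach of the erythroid 23.8 and 23.2 CPM. Cntnap2 overlapped between the classes, at 482 and 391 CPM and at 478 and 420.5 CPM (-0.04 ± 0.15, adjusted p = 0.965). Cntn3 gave 0.29 (adjusted p = 0.92), and Cntn4, Cntn6 and Cntnap5c were not tested. Of 7 tested genes, 5 were higher and 0 lower, where 3.25% and 2.31% of all genes were. The family median was 1.39 against -0.01.

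The Ebf1/Isl1 class was not uniform, which its mean levels hide. In cells with Isl1 but no Ebf1 UMIs (26 and 37 cells), Cntnap5b was at 1558 and 1490 CPM, and in cells with both (87 and 73) at 137 and 223 CPM, which is 11.4-fold and 6.67-fold higher in the Isl1-only cells. Cntn5 went the opposite way, at 179 and 270 CPM in Isl1-only cells against 2691 and 2999 CPM in cells with both, or 15.0-fold and 11.1-fold lower. Neither gene overlapped between the subsets. Cells with Ebf1 but no Isl1 UMIs (36 and 27) had Cntn5 at 2549 and 2419 CPM, a little below the cells with both, and Cntnap5b at 328 and 299 CPM, above them. In the cells with both, Cntnap5b overlapped with the 239.8 and 184 CPM of the Drd2/Six3 class, and the Isl1-only cells were the subset with the high values. Cntnap4 was also higher in Isl1-only cells, at 203 and 155 CPM against 67.6 and 53.5 CPM. These subsets were formed on marker UMIs after the data had been seen and are given without a test. The Isl1-only cells are named by this gene alone.

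Against cortical interneurons, the striatal classes together had more Cntn5 and Cntnap5b and almost no Cntnap5c. Cntn5 was at 1073 and 1239 CPM against 193 and 186 CPM (2.58 ± 0.12, adjusted p = 3.25e-10). Cntnap5b was at 337 and 395 CPM against 54.9 and 39.6 CPM (2.92 ± 0.15, adjusted p = 7.21e-10). Cntnap5c was at 9.72 and 12.1 CPM against 627 and 670.1 CPM (-5.93 ± 0.17, adjusted p = 1.55e-12), with its striatal level near the 7.15 and 8.92 CPM of erythroid cells. All 3 genes separated the groups without overlap. Cntnap4 (-2.39 ± 0.16) and Cntn4 (-2.15 ± 0.33) were lower, and Cntn1 (1.32 ± 0.18) and Cntnap2 (0.47 ± 0.12) higher, with adjusted p of 0.0129 or less. Cntn2 (0.47), Cntn3 (0.29) and Cntn6 (-0.60) were not called. The counts of 4 genes higher and 3 lower stand beside 8.33% and 9.48% of all genes, and the family median was 0.38 against 0.00.

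Cajal-Retzius cells and oligodendrocyte precursors, which entered no comparison, held the highest level of 3 of the genes. Cajal-Retzius cells, the reelin-producing neurons of the cortical surface, numbered 86 and had Cntnap2 at 3713 and 3390 CPM, above the next class, Sst+ interneurons at 962 and 650 CPM, in both libraries. They also had Cntn5 at 665 and 714 CPM, Cntn3 at 132 and 132 CPM and Cntnap5b at 85.9 and 75.8 CPM. Cntnap5c was near absent there, at 3.07 and 2.17 CPM, and Cntn1 was at 21.5 and 0 CPM. Oligodendrocyte precursors, 97 cells, had Cntn1 at 352 and 331 CPM and the gene was found in 34.0% of them after thinning (25.3 to 44.1%), against 4.17% of microglia and 0.633% of erythroid cells. Their Cntn4 was at 38.2 and 50.0 CPM and their Cntn6 at 20.1 and 28.8 CPM. Outside the neural classes, Cntn3 was at 164 and 9.37 CPM in mural cells, where 1 cell held 87.3% of the UMIs of WT replicate 1 and the level without it was 20.9 CPM.

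**Figure D5:**
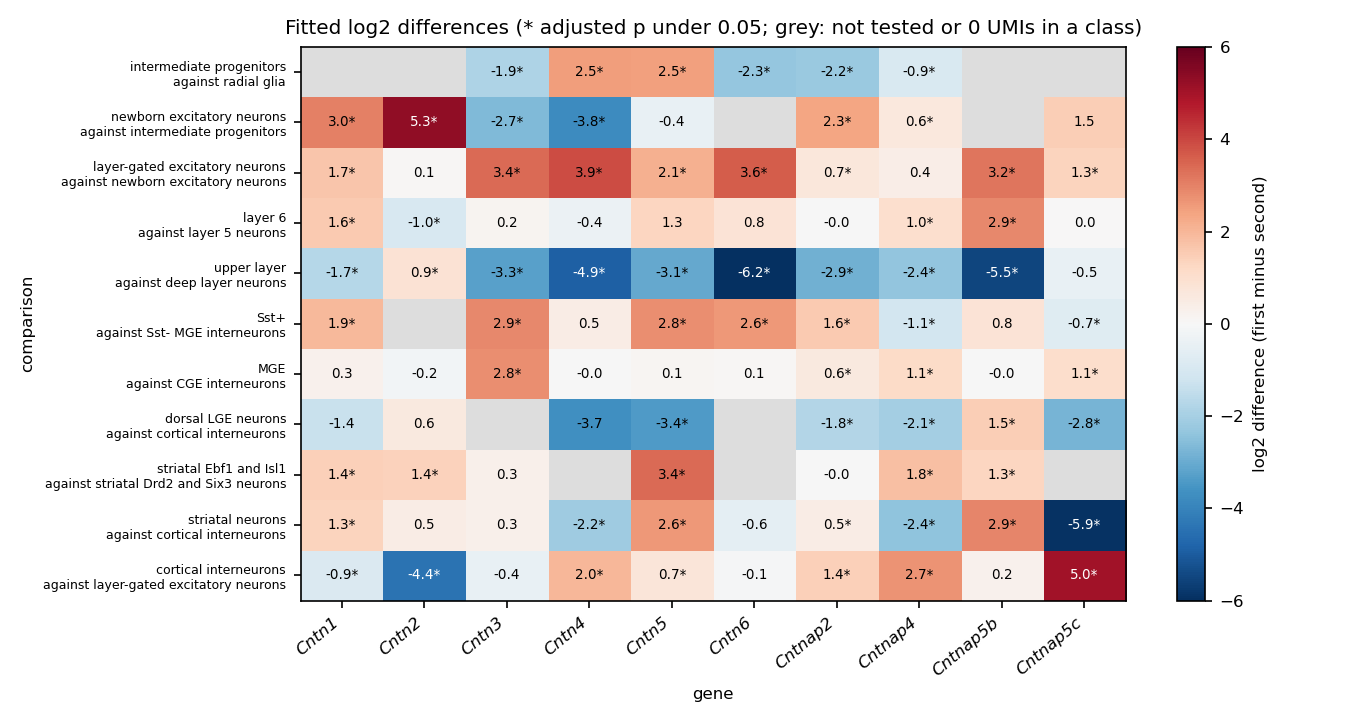
Fitted log2 difference (first class minus second) of each gene (columns) in each of the 11 comparisons (rows), with an asterisk at an adjusted p under 0.05 by edgeR and grey where a gene was not tested or had 0 UMIs in a class. The row of upper against deep layer neurons is negative for 9 genes and positive for Cntn2, and Cntnap5c runs from -5.93 in striatal neurons against cortical interneurons to 5.02 in cortical interneurons against layer-gated excitatory neurons.

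Over the 11 comparisons, 68 of 100 tests of the family were called, and 31 of these kept their call under each alternative in which they could be tested. Over all genes, the share called in a direction ran from 1.09% to 24.2% by comparison. These shares, given with each comparison above, also stand beside the partner counts below. The related and partner genes, 27 in all, gave the setting. Among them were the other Caspr genes (Cntnap1, Cntnap3, Cntnap5a), the phosphatases Ptprz1 and Ptprg, the L1 and NCAM adhesion proteins, tenascins, the amyloid precursor family, ankyrins and the Kv1 channel complex. From radial glia to intermediate progenitors 2 of 17 tested rose and 6 fell, with Tnc (tenascin C) falling by 3.58 and Ptprz1 falling by 2.28. Between intermediate progenitors and newborn neurons 12 of 20 rose and 6 fell. Tenascin R (Tnr, 6.20 ± 0.33), Chl1 (4.63 ± 0.17) and L1cam (4.01 ± 0.28) rose most, and Notch1, a receptor that several contactins bind, fell by 6.15. From newborn to layer-gated neurons 8 of 24 rose and 1 fell, with Lgi1 higher by 3.29, and 3 of 19 were higher in layer 6 than in layer 5, with Lgi1 at 2.61 and Nrcam at 2.14. Between upper and deep layer neurons 3 of 23 were higher and 7 lower in upper layer neurons. Lgi1 (-4.34 ± 0.29), Ptprg (-2.37 ± 0.14) and Nrcam (-1.91 ± 0.12) were the lowest of these, and Ptprz1 was higher by 0.57.

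In 3 comparisons of inhibitory classes, Cntnap3 differed by 4.90 or more on the log2 scale. It was higher in cortical interneurons than in excitatory neurons by 7.06 ± 0.23 (adjusted p = 1.26e-08), in MGE than in CGE interneurons by 5.78 ± 0.33 (adjusted p = 3.33e-07) and in Ebf1/Isl1 than in Drd2/Six3 striatal neurons by 4.90 ± 0.49 (adjusted p = 3.59e-05). The lower class held few Cntnap3 UMIs each time, with 4 and 5 in excitatory neurons, 4 and 1 in CGE interneurons and 5 and 0 in Drd2/Six3 neurons. The counts of partners called were 9 of 26 higher and 11 lower in interneurons than in excitatory neurons, 3 of 22 higher and 2 lower in MGE than in CGE cells, and 5 of 19 higher and 1 lower in Ebf1/Isl1 than in Drd2/Six3 cells. Ptprg was among the higher in the last comparison (2.13 ± 0.25), and Tnr was the 1 lower (-3.21 ± 0.19). Between Sst+ and Sst- MGE cells, 0 of 20 partners were called by edgeR and 0 by DESeq2, while 10 had an unadjusted p under 0.05. In dorsal LGE neurons 0 of 21 partners were higher and 4 lower than in cortical interneurons by edgeR, with 8 at an unadjusted p under 0.05 in either direction and 3 called by DESeq2. Cntnap3 (-2.53) and Chl1 (-2.51) were among the 4, as was Lgi1, which had 0 UMIs in dorsal LGE neurons of both libraries against 141 and 154 in cortical interneurons, so that no fold is given. In striatal neurons 7 of 22 were higher and 8 lower, with Adam23 higher by 2.14 and Lgi1 lower (-3.93 ± 0.28).

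The genes with the most similar profile were found by Pearson's r of log2(mean CPM + 1) over the 20 classes, among 11835 genes that reached 20 CPM in some class and were neither members nor markers. Classes share libraries and differ in depth, so r is a description. For Cntn2 they were Bhlhe22 (r = 0.9345), Cdh12 (0.9326) and Cldn3 (0.9145), and for Cntnap2 Tmem200a (0.9267), Rit2 (0.9220) and Ina (0.9086). For Cntnap4 they were Cacnb4 (0.9200), Frmd5 (0.9052) and Jazf1 (0.9047), and for Cntnap5c Pde4dip (0.8996), Gm47027 (0.8952) and Grip1os1 (0.8901). Cntn1 was closest to Tmeff2 (0.8931), Grm5 (0.8784) and Nap1l5 (0.8677), Cntn5 to Ablim3 (0.8780) and 4930480K15Rik (0.8620), and Cntnap5b to 8030451O07Rik (0.8774), Trpc7 (0.8423) and Galntl6 (0.8396). Cntn3, Cntn4 and Cntn6 had weaker matches, led by 4930587E11Rik (0.7965), Gabra3 (0.8639) and Cdr1os (0.8450). Among the 45 pairs within the family the median r was 0.5259, and the range ran from -0.1045 for Cntn3 with Cntnap5c to 0.8122 for Cntn5 with Cntnap2.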

How the data were processed

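2 WT single-cell libraries at E16.5 were analysed. Per the labels, the dorsal telencephalon was dissociated with papain and libraries were made with the 10x Genomics single-cell 3' chemistry, version 3.1. The submitters' notes name Cell Ranger 7.0.0 and the mm10 build, and the gene annotation used for counting is not given in the sources used here. The files deposited by the authors hold UMI counts for each gene in each cell, without normalization. CPM were computed here.

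Cells entered with 1500 to 60000 UMIs, less than 10% of them mitochondrial, and Scrublet scores (scanpy 1.11.5) removed as many cells as a rate of 0.8% per 1000 barcodes gives (920 and 857). Cells were assigned to 20 classes by minimum UMIs of fixed markers, and the minimums were set after the files had been seen, from marker counts alone. The 16 cells in more than 1 gate were left out. UMIs were summed per library and class and compared in 2-class fits with edgeR 4.0.16 (TMM, filterByExpr, glmQLFit and glmQLFTest, two-sided, R 4.3.3), with Benjamini-Hochberg adjustment over all genes tested and a threshold of 0.05. Standard errors were derived from the log2 difference and the F statistic, and differences within a library used a prior count of 0.5. Sums of one library come from the same embryo or embryos, so its classes are paired. The deviations of same-library sums were correlated across genes with r from 0.119 to 0.457 over the 11 comparisons. Scripts were tested on simulated data.

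All 10 genes are named in every comparison, and of the 27 partners up to 3 with the greatest differences in a direction. The 3 genes with the most similar profile were found for each gene, of which 1 to 3 are named and the others are not reported here. The genes, lists and comparisons were chosen with earlier results of these data known. Alternatives were RLE scaling, no scaling, no filter, DESeq2 1.42.0, 1 fit of all classes, a library block, stricter gates or cells (3000 to 30000 UMIs, less than 5% mitochondrial), doublets kept, thinning to 2000 UMIs and leaving out each library. Leaving out the top cell and splitting the layer-gated neurons were added after the data had been seen. Precision is limited by 27 to 828 cells and 88546 to 6575813 UMIs per class and library.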

Additional observations from a re-analysis of the deposited data

How the results depend on the processing

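Of 1065 member differences refitted under an alternative, 940 kept their direction and side of the threshold, 77 lost and 18 gained a call, and 28 changed sign. The library as a replicate block ended none of the 68 calls and added 5: Cntnap5c in newborn neurons against intermediate progenitors (adjusted p = 0.0259), Cntnap4 in layer-gated against newborn neurons (0.0176), Cntn5 (1.15e-14) and Cntn6 (0.00436) in layer 6 against layer 5, and Cntn4 in dorsal LGE neurons (0.00593), and it changed no other call. The block leaves fewer residual degrees of freedom than the main fit, so its p-values were not taken as stronger evidence. The number of genes called moved by over 1.5 times in 17 cases. Thinning gave 3 genes in place of 6 for intermediate progenitors against radial glia, 3 of 6 for newborn neurons, 2 of 8 for layer-gated neurons, 0 of 7 for Sst+ cells, 2 of 4 for MGE against CGE, 1 of 5 for dorsal LGE and 1 of 5 for striatal classes. Stricter gates gave 4, 1 and 3 for layer-gated, Sst+ and dorsal LGE neurons, DESeq2 gave 3 for newborn neurons and 4 for Sst+ cells, a fit of all classes gave 2 for intermediate progenitors and 3 for dorsal LGE, no filter gave 0 for dorsal LGE and 4 for striatal neurons against interneurons, and upper layer neurons alone gave 3 against newborn neurons. The 4 called differences that changed sign were Cntnap2 in layer-gated against newborn neurons (-0.54 thinned, -0.71 upper layer only), Cntnap5b there (-0.43 upper layer only) and Cntn2 in layer 6 against layer 5 (0.10 thinned), and the cause was not tested. Uncalled differences also changed sign. Against newborn neurons they were Cntn2 (-0.58 deep layer only) and Cntnap4 (-0.63 upper layer only), and for layer 6 against layer 5 Cntn3 (-1.17) and Cntn6 (-0.14) with stricter gates, Cntn4 (-1.38 to 2.60 from single libraries, 0.87 without the top cell), Cntnap2 (0.079, stricter cells) and Cntnap5c (-0.015, no scaling). For upper against deep layer neurons it was Cntnap5c (-1.65 to 0.74 from single libraries) and for Sst+ cells Cntn4 (-0.15 without the top cell). For MGE against CGE they were Cntn1 (-0.13, stricter cells), Cntn4 (0.58 thinned, 0.043 with doublets, 0.14 stricter cells, 0.038 without the top cell, -0.22 to 0.32 from single libraries), Cntn5 (-0.21 stricter cells, -0.20 without the top cell), Cntn6 (-0.053 to 0.17 from single libraries, -0.18 without the top cell) and Cntnap5b (0.56 thinned, 0.062 stricter gates, -0.30 to 0.19 from single libraries). In dorsal LGE neurons they were Cntn1 (1.19) and Cntn4 (1.88) thinned and Cntn2 (-0.10 to 1.25 from single libraries). Between striatal classes they were Cntn3 (-0.24 to 1.64 from single libraries) and Cntnap2 (0.18 thinned, 0.0073 with doublets, 0.051 without the top cell, -0.10 to 0.021 from single libraries), and for striatal neurons against interneurons Cntn3 (-0.84 to 1.03 from single libraries). For interneurons against excitatory neurons they were Cntn6 (-0.21 to 0.050 from single libraries) and Cntnap5b (-0.029 to 0.46 from single libraries, -0.15 without the top cell). A fit without 1 library leaves no spread between libraries and gives no test. The leading class of a gene changed only for Cntn4 and Cntn6 (stricter gates and thinning) and Cntnap5b (thinning) among the alternatives on cells and gates.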
